A study of Saccharomyces cerevisiae with 6 samples.

Results

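The genes described here encode the enzymes and carriers with which budding yeast uses ethanol, acetate and lactate and makes sugar from them. They are ADH2 and ACS1 of ethanol use, ICL1, MLS1, CIT2 and MDH2 of the glyoxylate cycle and its malate step, PCK1 and FBP1 of gluconeogenesis, and the carriers SFC1 and JEN1. They were chosen by gene symbol, with no measured value in the rule, but with earlier results of these data known. They make up 10 of the 5656 genes that the array annotation names with a single symbol. Each of the 10 had 1 probe set, and all 10 passed the filter on low signals.

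Transcripts were measured on 6 Affymetrix 1-colour arrays. Cultures of Saccharomyces cerevisiae in YPD, a rich medium with glucose, were grown at 30 °C to an optical density of 1.0 and then for another 6 h. The A100 and B100 labels each cover 1 control array and 1 array of cells given 100 µg/ml azinomycin B, a bacterial compound that alkylates DNA and cross-links its strands. The label 10 covers 1 control array and 1 array of cells given 10 µg/ml, the dose named as the ED50, the median effective dose. The compound was dissolved in a small volume of ethanol, and the labels do not mention ethanol for the controls, so azinomycin B and its solvent cannot be told apart. The sources used here give neither the strain nor the glucose left in the cultures at harvest, and no label names separate cultures behind the arrays of a group. The p-values therefore cover only the spread between these samples, which may be technical.

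While glucose is plentiful, yeast ferments it to ethanol and represses this gene set. When glucose runs out, at the diauxic shift, the kinase Snf1 relieves the repression and the activators Cat8, Sip4 and Adr1 switch the genes on. Ethanol is then oxidised to acetate and turned into acetyl-CoA. The glyoxylate cycle joins acetyl units into larger acids without losing carbon as carbon dioxide, and gluconeogenesis turns these acids into hexose phosphates.

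At 100 µg/ml all 10 genes were lower than in the controls of the same label, in both pairs. Arrays were paired by the letters in their labels alone. The median difference was -1.70 (log2) on the A100 array, below -0.74 on the B100 array. MLS1 and SFC1 stood lowest, at 3.65% and 6.29% of their A100 control and at 37.7% and 39.5% of their B100 control. At 10 µg/ml the median was -0.04, with 6 genes lower and 4 higher. No gene passed the test in any comparison. The median over all 6956 probe sets tested was 0.03, 0.06 and 0.08 in the A100, B100 and 10 pairs. In bulk cultures, fewer cells that express a gene and less of its RNA per cell cannot be told apart.

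Differences are of log2(signal + 16), where 16 is a pseudocount, and "own controls" are those whose titles carry the same dose number, A100 and B100 for 100 µg/ml and 10 for 10 µg/ml. Tests are limma's moderated two-sided tests with Benjamini-Hochberg adjustment over the 6956 probe sets. The control labelled 10 stood apart: it correlated with the A100 and B100 controls at r = 0.903 and 0.910, across probe sets that are not independent, while these correlated with each other at r = 0.980. Each dose is therefore set both against all 3 controls and against its own controls. The arrays had median signals of 112.0 to 143.9, with 15.2% to 18.2% of values below the pseudocount. ACT1, whose 3' over 5' signal is a measure of RNA integrity, had ratios of 2.09 and 1.44 on the A100 and B100 treated arrays, of 1.69 to 2.05 on the controls and of 1.78 on the treated array of label 10. The part of RNA quality in the results was not tested.

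**Figure D1:**
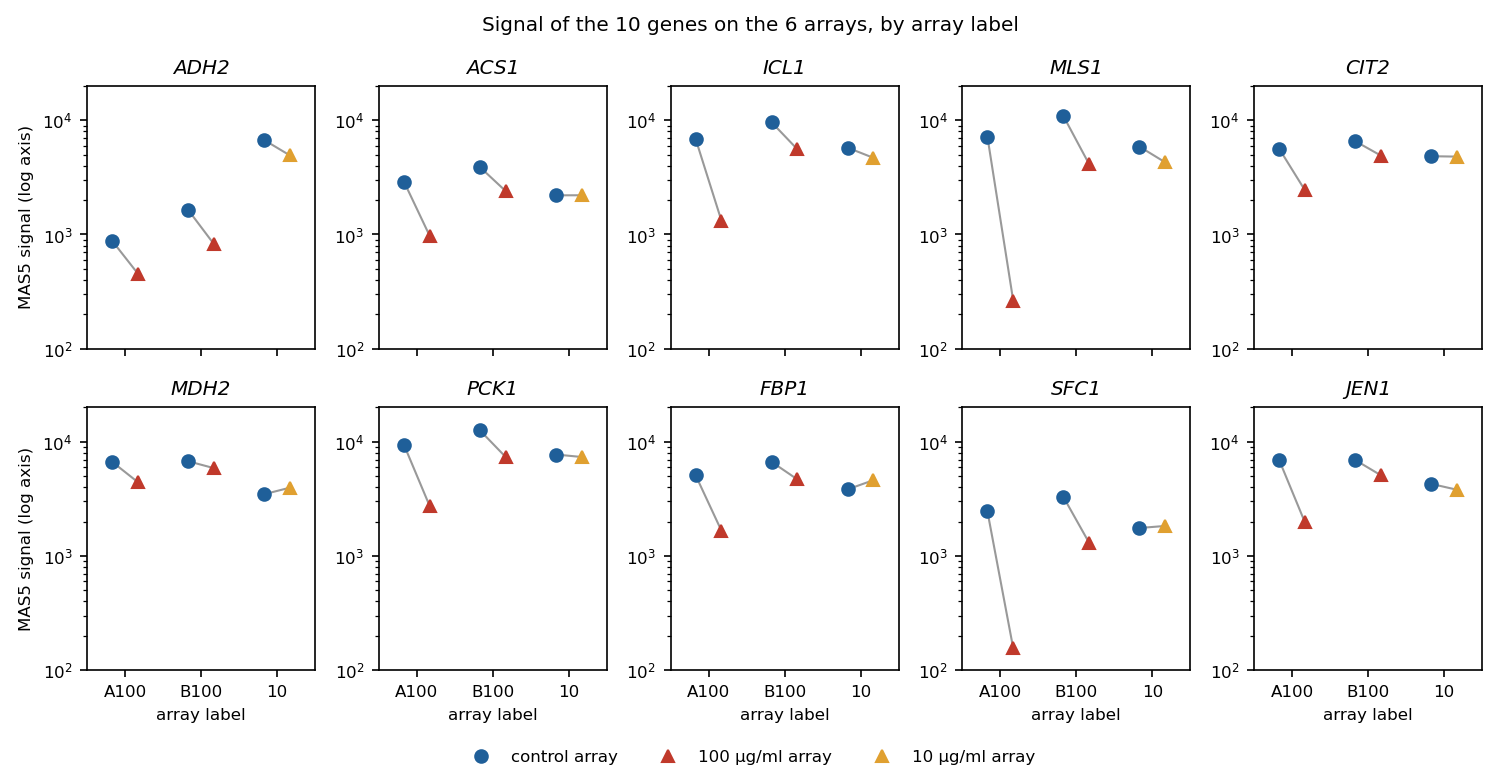
MAS5 signal of each gene (vertical log axis) on the 6 arrays, grouped by array label (horizontal axis), with circles for controls, triangles for treated arrays and a line joining each label's control and treated array. Every line of the A100 and B100 labels slopes down, most steeply for MLS1 and SFC1 in A100, and the ADH2 signals of label 10 stand above those of the other labels.

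Of the genes of ethanol use, ADH2 (YMR303C) encodes the alcohol dehydrogenase that oxidises ethanol to acetaldehyde. Its signal was 879, 1642 and 6727 on the A100, B100 and 10 controls, 453 and 822 on the A100 and B100 arrays at 100 µg/ml, and 4925 at 10 µg/ml. Both 100 µg/ml arrays lay below all 3 controls, the B100 array only narrowly below the A100 control. ADH2 differed from its control by -0.93, -0.98 and -0.45 in the A100, B100 and 10 pairs, and it was the only one of the 10 genes whose A100 difference was not the larger of the 2. Its log2 fold change at 100 µg/ml was -1.78 (SE 0.822) against all 3 controls and -0.96 (SE 0.425) against its own, since the control labelled 10 was 5.34 times the mean of the other controls.

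ACS1 (YAL054C) encodes the acetyl-CoA synthetase that yeast makes on ethanol and acetate. Its signal was 2910, 3898 and 2204 on the A100, B100 and 10 controls, against 970 and 2398 after 100 µg/ml and 2206 after 10 µg/ml. The groups overlapped over all 3 controls, because the control labelled 10 lay below the B100 treated array, but not among the A100 and B100 arrays. The log2 fold change at 100 µg/ml against its own controls was -1.13 (SE 0.460), and the 10 pair differed by 0.00.

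Of the glyoxylate cycle, ICL1 (YER065C) encodes isocitrate lyase, which splits isocitrate into glyoxylate and succinate. Its signal was 6868, 9607 and 5761 on the A100, B100 and 10 controls, 1318 and 5569 on the 100 µg/ml arrays and 4693 on the 10 µg/ml array. Both 100 µg/ml arrays lay below all 3 controls, with the B100 array 0.05 (log2) below the control labelled 10. The fold change was -1.41 (SE 0.597) against all 3 controls and -1.58 (SE 0.671) against its own.

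MLS1 (YNL117W) encodes malate synthase, which joins glyoxylate to acetyl-CoA. Its signal was 7220 on the A100 control, 10927 on B100 and 5894 on 10, against 263 and 4120 after 100 µg/ml and 4288 after 10 µg/ml. MLS1 was thus 27.4-fold lower in the A100 pair, 2.65-fold lower in the B100 pair and 1.37-fold lower in the 10 pair, and every treated array lay below every control. The log2 fold change at 100 µg/ml was -2.85 (SE 1.04) against all 3 controls and -3.05 (SE 1.20) against its own, in each case rank 2 from the lowest among the 6956 probe sets. With the treated A100 array left out it was -0.91 and -1.11.

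CIT2 (YCR005C) encodes the peroxisomal citrate synthase of the cycle, a standard target of retrograde signalling from mitochondria to the nucleus. Its signal was 5654, 6574 and 4851 on the A100, B100 and 10 controls, against 2441 and 4912 after 100 µg/ml and 4812 after 10 µg/ml. The B100 treated array and the control labelled 10 were 0.02 (log2) apart, so the groups overlapped over all 3 controls. The fold change at 100 µg/ml was -0.81 (SE 0.373) against its own controls.

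MDH2 (YOL126C) encodes the cytosolic malate dehydrogenase, which feeds malate from the cycle into gluconeogenesis. Its signal was 6678, 6756 and 3475 on the A100, B100 and 10 controls, 4423 and 5878 on the 100 µg/ml arrays and 3967 on the 10 µg/ml array. It had the smallest differences of the 10 genes at 100 µg/ml, -0.59 and -0.20 in the pairs. The fold change was -0.40 (SE 0.243) against its own controls and -0.08 (SE 0.364) against all 3, where the control labelled 10 lay below both treated arrays.

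Of gluconeogenesis, PCK1 (YKR097W) encodes phosphoenolpyruvate carboxykinase, which makes phosphoenolpyruvate from oxaloacetate. Its signal was 9441, 12613 and 7743 on the A100, B100 and 10 controls, against 2729 and 7353 after 100 µg/ml and 7362 after 10 µg/ml. Both 100 µg/ml arrays lay below all 3 controls, the B100 array by 0.07 (log2). The fold change was -1.12 (SE 0.452) against all 3 controls and -1.28 (SE 0.492) against its own, and the 10 pair differed by -0.07.

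FBP1 (YLR377C) encodes fructose-1,6-bisphosphatase, the last step that separates gluconeogenesis from glycolysis. Its signal was 5089, 6673 and 3832 on the A100, B100 and 10 controls, 1661 and 4679 on the 100 µg/ml arrays and 4615 on the 10 µg/ml array. The 100 µg/ml arrays lay below their own controls but not both below the control labelled 10, and the 10 µg/ml array lay above its control by 0.27. The fold change at 100 µg/ml was -1.06 (SE 0.507) against its own controls and -0.86 (SE 0.480) against all 3.

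Of the carriers, SFC1 (YJR095W) encodes the mitochondrial succinate-fumarate carrier, which brings the succinate of the glyoxylate cycle into mitochondria in exchange for fumarate. Its signal was 2472, 3293 and 1757 on the A100, B100 and 10 controls, against 156 and 1300 after 100 µg/ml and 1832 after 10 µg/ml. SFC1 was 15.9-fold lower in the A100 pair and 2.53-fold lower in the B100 pair, with both treated arrays below all 3 controls, and it differed by 0.06 in the 10 pair. The fold change was -2.36 (SE 0.816) against all 3 controls and -2.59 (SE 0.917) against its own, ranks 5 and 4 from the lowest. With the treated A100 array left out these were -0.89 and -1.12.

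JEN1 (YKL217W) encodes the plasma membrane carrier for lactate and pyruvate. Its signal was 6947 and 6945 on the A100 and B100 controls and 4283 on the control labelled 10, against 1968 and 5088 after 100 µg/ml and 3804 after 10 µg/ml. The A100 and B100 controls hardly differed and both treated arrays lay well below them, whereas the control labelled 10 lay between the treated arrays. The fold change at 100 µg/ml was -1.13 (SE 0.460) against its own controls and -0.90 (SE 0.455) against all 3.

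**Figure D2:**
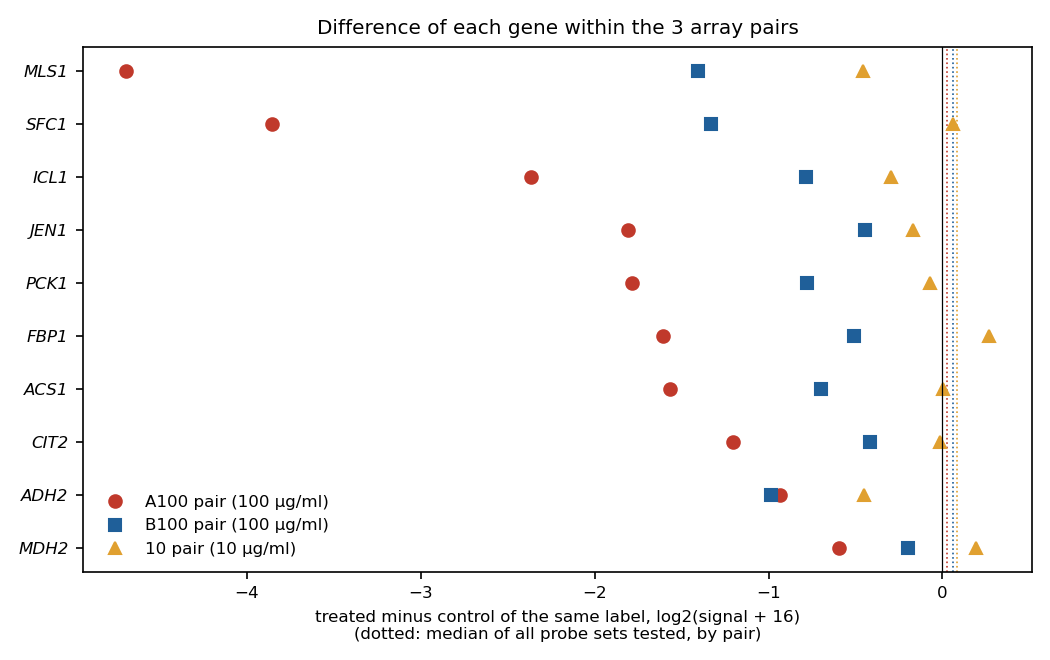
Treated minus control of the same array label in log2(signal + 16) (horizontal axis) for each gene (vertical axis), with circles for the A100 pair, squares for B100, triangles for 10 and dotted lines at the medians of all probe sets tested. The A100 differences reach from -4.70 to -0.59, the B100 differences from -1.40 to -0.20 and those of the 10 pair from -0.46 to 0.27.

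Against the A100 and B100 controls, both 100 µg/ml arrays lay below both controls for 10 of 10 genes, as they did for 18.5% of all probe sets tested. Against all 3 controls this held for 5 of 10 (ADH2, ICL1, MLS1, PCK1 and SFC1), beside 7.58% of all probe sets. For the other 5, the control labelled 10 lay below the B100 treated array. Values at least 2-fold lower were found for 8 of 10 genes in the A100 pair (all but ADH2 and MDH2), beside 6.12% of all probe sets. In B100 this held for MLS1 and SFC1 (0.661% of all probe sets) and in the 10 pair for 0 of the 10 genes (2.40%). All 10 were lower in both 100 µg/ml pairs, as were 25.6% of all probe sets. As the genes were chosen with earlier results of these data known, such shares are a description and not a test of the set.

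The A100 and B100 controls themselves differed by up to 0.89 (log2, ADH2), with the B100 control higher for 9 of 10 genes. Treated and control arrays lay further apart than these controls did for 10 of 10 genes, in the A100 pair as in B100. The stricter gap, from the lower of these controls to the higher treated array, exceeded it for 4 genes, MLS1 (0.81), SFC1 (0.92), JEN1 (0.45) and MDH2 (0.18). For the other 6 the gap was 0.10 to 0.36, narrower than the spread between the controls. The 10 pair differed by less than the A100 and B100 controls did for 8 of 10 genes, the exceptions being JEN1 and MDH2, whose controls were nearly equal.

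**Figure D3:**
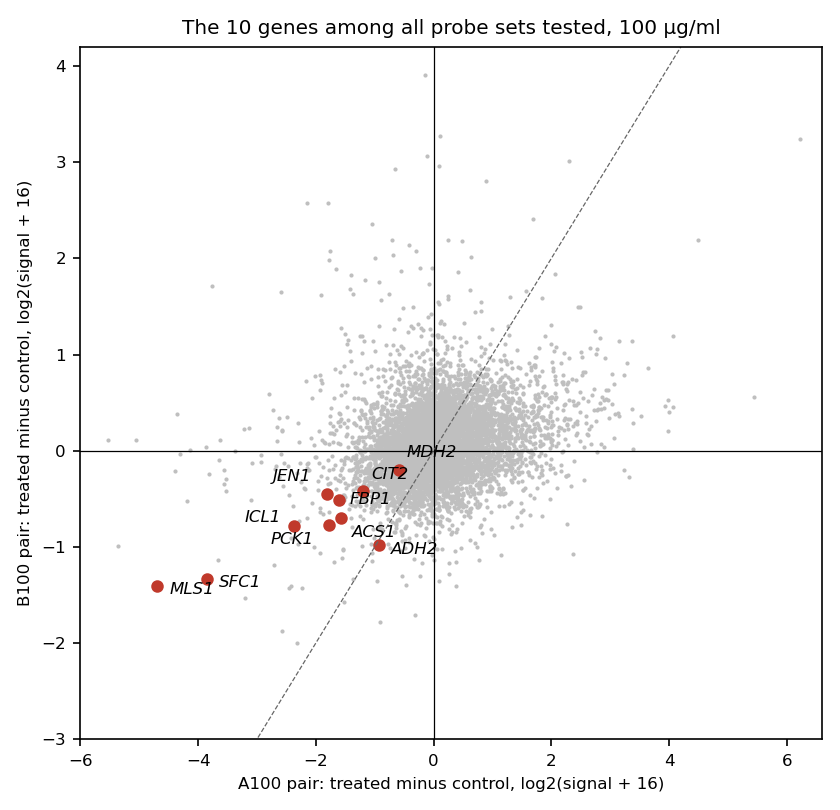
Difference between treated and control array in the A100 pair (horizontal) and the B100 pair (vertical), in log2(signal + 16), for the 6956 probe sets tested (grey) and the 10 genes (red), with a dashed line of equality. All 10 lie at the lower left, and all except ADH2 lie above the dashed line, which means a difference further below 0 in the A100 pair.

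In the test against all 3 controls at 100 µg/ml, 10 of 10 genes had a negative fold change, beside 43.8% of all probe sets, with a median of -1.02 against 0.05 over all. The adjusted p was 0.957 for 9 genes and 0.990 for MDH2. The limma test called 0 of the 6956 probe sets (0%), while 232 had an unadjusted p under 0.05, among them MLS1 (unadjusted p = 0.0307), SFC1 (0.0253) and PCK1 (0.0455). An unadjusted p under 0.05 with a lower level was found for 1.19% of all probe sets. Against their own controls 10 of 10 were negative, beside 45.2% of all, with a median of -1.13 against 0.05. There limma also called 0 probe sets (0%), 425 had an unadjusted p under 0.05, and the adjusted p was 0.636 for all 10 genes. The same 3 genes had an unadjusted p under 0.05 (MLS1 0.0472, SFC1 0.0327, PCK1 0.0435), beside 1.88% of all probe sets at a lower level.

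The size of these values rests on the treated A100 array. With it left out, the median against own controls was -0.51 and 10 of 10 genes were still negative. Against all 3 controls it was -0.33 with 9 negative, MDH2 then being at 0.12. With the treated B100 array left out instead, the median against own controls was -1.81, limma called 1135 probe sets and 9 of the 10 genes passed the test at an adjusted p of 0.000703 to 0.0479, MDH2 being the exception. That last fit takes its spread from the A100 and B100 controls alone and assumes that a lone treated array varies in the same way. Scaling the arrays to a common median moved the median of all probe sets by -0.20 (A100), -0.15 (B100) and -0.14 (10). Relative to all probe sets, the median of the 10 genes in the A100 pair was -1.72 as deposited and -1.74 after that scaling. For B100 these medians were -0.80 and -0.81, but -0.50 after quantile normalisation, with 10 of 10 genes still lower.

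At 10 µg/ml, against the control of the same label, the 10 genes lay within 0.46 (log2) of their control. MLS1 (-0.46), ADH2 (-0.45) and ICL1 (-0.29) were lowest, followed by JEN1 (-0.17), PCK1 (-0.07) and CIT2 (-0.01), while ACS1 (0.00), SFC1 (0.06), MDH2 (0.19) and FBP1 (0.27) were at or above it. After quantile normalisation PCK1 and CIT2 turned to 0.12 and 0.10, and after scaling to a common median ACS1 and SFC1 turned to -0.15 and -0.09. The 6 negative values compare with 42.1% of all probe sets. None of the 10 passed (limma adjusted p = 0.998, and 0.999 for ACS1), limma called 0 probe sets (0%) and 254 had an unadjusted p under 0.05. The SEs of these fold changes ran from 0.344 (MDH2) to 1.70 (MLS1), larger than the size of the difference for each of the 10 genes. These SEs take in the spread between the A100 and B100 treated arrays. Against all 3 controls the median was -0.40 with 9 of 10 negative, beside 44.5% of all probe sets. The exception was ADH2 at 1.20 (SE 1.04, adjusted p = 0.776), which turned to -0.45 against its own control. Here too limma called 0 probe sets (0%), with 291 at an unadjusted p under 0.05.

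Each dose minus its own controls was lower at 100 than at 10 µg/ml for 10 of 10 genes, beside 51.0% of all probe sets, with a median difference of -1.17 against -0.01 over all. The differences ran from -2.65 (SE 1.59, SFC1) and -2.59 (SE 2.08, MLS1) to -0.59 (SE 0.421, MDH2) and -0.51 (SE 0.736, ADH2). None passed (limma adjusted p = 0.966 for each; 0 probe sets called, 0%, and 234 at an unadjusted p under 0.05). Leaving out the treated A100 array gave a median of -0.44, and leaving out the treated B100 array gave -1.85. Each of these fits has 1 treated array left at 100 µg/ml.

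The control labelled 10 differed from the A100 and B100 controls, for ADH2 in the other direction from the rest. On the control labelled 10, the other 9 genes were lower than on both the A100 and the B100 control, by 0.33 (CIT2) to 0.95 (MDH2) on the log2 scale below the mean of the 2, whereas ADH2 was 2.47 higher. The highest signal was on the B100 control for 8 of 10 genes, on the A100 control for JEN1 and on the control labelled 10 for ADH2. The lowest was on the treated A100 array for 9 of 10, and on the control labelled 10 for MDH2. Over the 6 arrays, 8 genes followed the mean profile of the set at r = 0.916 (JEN1) to 0.997 (MLS1 and SFC1), a mean to which each contributes, while ADH2 had r = 0.54 and MDH2 r = 0.34. Over the 5 arrays other than the treated A100 array, the 8 lay between r = 0.66 (JEN1) and 0.972 (MLS1), ADH2 was at -0.04 and MDH2 at 0.43. These correlations are descriptions over 6 arrays, or 5, that share 3 labels.

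The 5 genes outside the set with the profile most like its mean were QCR2, a subunit of the cytochrome bc1 complex of the respiratory chain (r = 0.996), IDP2, the cytosolic isocitrate dehydrogenase that makes NADPH (0.994), EAF3, a chromatin protein of histone acetylation and deacetylation complexes (0.990), ADY2, an acetate transporter (0.989), and PRM4 (0.988). QCR2 had 5642, 6169 and 5388 on the A100, B100 and 10 controls, 3698 and 5169 on the 100 µg/ml arrays and 5251 on the 10 µg/ml array. Its differences of -0.61, -0.25 and -0.04 were smaller than those of most of the 10 genes, since likeness here is of shape and not of size. ADY2 differed by -1.54, -0.46 and -0.30 in the pairs. EAF3 and PRM4 have probe set numbers between 7600 and 8500, where 12.7% of the probe sets were at least 2-fold lower in the A100 pair, beside 5.33% of the others. None of the 10 genes has a number in that range, but CIT3, ICL2 and PYK2, which are set beside them below, do.

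Isozymes, enzymes of the opposite step and the pyruvate carboxylases PYC1 and PYC2 had a median nearer to 0 than the set. The 17 such genes had 12 negative and 5 positive fold changes at 100 µg/ml against their own controls, with a median of -0.15 and 0 past the test. In 14 of 17 pairs of a gene and its partner, the gene of the set had the lower value in both 100 µg/ml pairs, whereas in the 10 pair this held for 9 of 17. Without DAL7, whose signals lie near the pseudocount, the counts were 13 of 16 and 8 of 16, a choice made after seeing the data. Genes such as PCK1 and ADH2 recur among the pairs, so the pairs are not independent. These differences within arrays were not tested.

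Of the ethanol and acetate genes, the fermentative alcohol dehydrogenase ADH1 differed by -0.30, -0.35 and -0.13 in the A100, B100 and 10 pairs, beside -0.93, -0.98 and -0.45 for ADH2. ADH1 and ADH2 are closely related in sequence, and cross-hybridisation between them was not tested. The mitochondrial ADH3 was at -0.08, -0.22 and -0.17, ADH4 at 0.34, -0.05 and 0.03, and ADH5 at 0.54, 0.13 and 0.60. ACS2, the acetyl-CoA synthetase used on glucose, was at -0.36, -0.33 and -0.16, beside -1.57, -0.70 and 0.00 for ACS1.

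In the cycle, ICL2, a mitochondrial relative of ICL1 that acts on methylisocitrate, was at 0.03, -0.12 and -0.40 in the A100, B100 and 10 pairs, beside -2.37, -0.78 and -0.29 for ICL1. DAL7, a second malate synthase that is tied to allantoin use, had signals of 13.3 to 62.4 on all arrays, too near the pseudocount for its differences to be read. The mitochondrial citrate synthases CIT1 and CIT3 were at -0.53 and -1.03 (A100) and at -0.21 and -0.61 (B100), beside -1.21 and -0.42 for CIT2, so CIT3 was lower than CIT2 in the B100 pair. Of the malate dehydrogenases, mitochondrial MDH1 was at -0.62, 0.15 and -1.17 and peroxisomal MDH3 at -0.83, -0.16 and -0.03, beside -0.59, -0.20 and 0.19 for MDH2.

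Around gluconeogenesis, the glycolytic pyruvate kinases CDC19 (0.27, -0.25 and 0.02 in the A100, B100 and 10 pairs) and PYK2 (0.39, 0.09 and 0.24) were above PCK1 (-1.78, -0.78 and -0.07) in each pair. The pyruvate carboxylase PYC1, which makes oxaloacetate from pyruvate, was at -1.76, -0.74 and -0.31, nearly the same as PCK1 at 100 µg/ml. Its isozyme PYC2 was at -0.43, 0.16 and -0.04. PYC1 had 3723, 4280 and 5705 on the controls, 1090 and 2554 after 100 µg/ml and 4597 after 10 µg/ml, with both 100 µg/ml arrays below all 3 controls (limma log2 fold change against own controls -1.25, SE 0.426, adjusted p = 0.636). The phosphofructokinase subunits PFK1 (-0.38, -0.02 and -0.90) and PFK2 (-0.06, -0.15 and 0.07), which act against FBP1, were also above FBP1 (-1.61, -0.51 and 0.27) at 100 µg/ml.

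**Figure D4:**
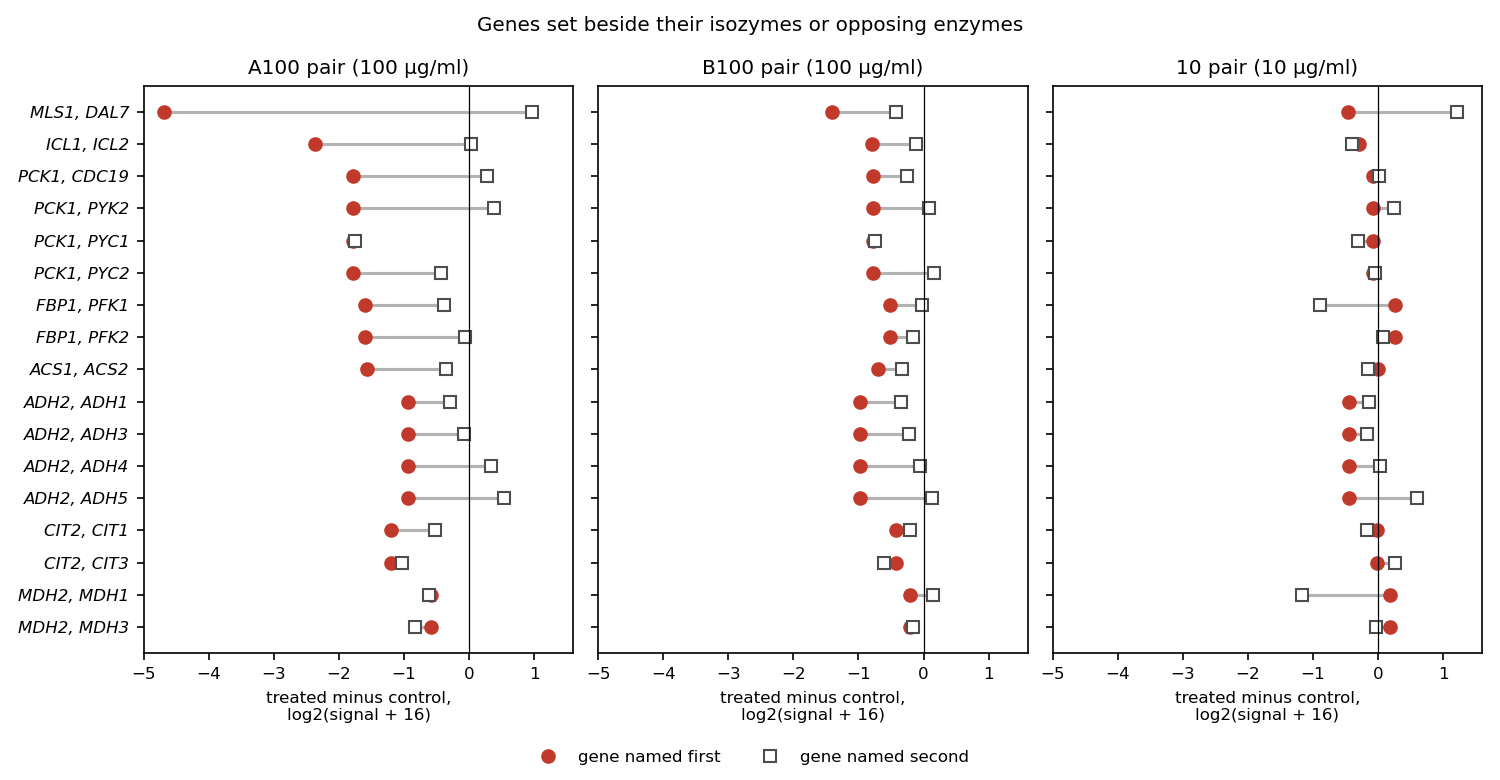
Treated minus control in log2(signal + 16) (horizontal axes, 1 panel per array pair) for genes of the set (filled circles) and partner genes (open squares), 1 pair of genes per row. The partners are isozymes or opposing enzymes and, for PCK1, also the pyruvate carboxylases PYC1 and PYC2. At 100 µg/ml the circles lie left of the squares in most rows, with PCK1 and PYC1 nearly together and MDH2 level with its isozymes.

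Other genes around the use of non-fermentable carbon had a median nearer to 0. Of 28 such genes, which include the pyruvate decarboxylases PDC1 and PDC5 of fermentation, 20 had a negative and 8 a positive fold change at 100 µg/ml against their own controls, with a median of -0.55 beside 0.05 over all probe sets, and 0 passed. Without PDC1 and PDC5, a choice made after seeing the data, 20 of 26 were negative and 6 positive, with a median of -0.60. The pairs had medians, over all 28, of -0.94 (A100), -0.25 (B100) and -0.07 (10). The largest values were those of the carnitine acetyltransferases YAT2 (-1.95, SE 0.792) and YAT1 (-1.55, SE 0.316), of IDP2 (-1.13, SE 0.496) and, in the other direction, of the aldehyde dehydrogenase ALD5 (1.13, SE 0.511). These carry acetyl units, make cytosolic NADPH and oxidise acetaldehyde in mitochondria. The signal of ALD5 was 59.5 and 13.7 on the A100 and B100 controls, the latter below the pseudocount, so its value is not readable as a fold. YAT1 had nearly equal values in the A100 and B100 pairs, -1.52 and -1.57, and 0.32 in the 10 pair (limma adjusted p = 0.636 for each of the 4 genes).

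The list of regulators of the set pools activators with repressors, so its count of signs cannot show a common direction. Of 21 regulators 10 were negative and 11 positive at 100 µg/ml against their own controls, with a median of 0.02 and 0 past the test. The activators SIP4 (0.02, SE 0.335) and ADR1 (0.14, SE 0.264) and the kinase gene SNF1 (0.10, SE 0.273) were not lower. CAT8, the activator of ACS1, ICL1, MLS1, PCK1, FBP1 and SFC1, had signals of 1217, 827 and 171 on the A100, B100 and 10 controls, against 395 and 691 after 100 µg/ml and 254 after 10 µg/ml. It was below both of its own controls on each 100 µg/ml array (-0.92, SE 0.362, with -1.59 and -0.25 in the pairs), and its levels on both arrays of label 10 were lower still, so that it was at -0.11 against all 3 controls. HAP4, the activator of respiration genes, was at -0.80 (SE 0.358), and the hexokinase HXK2, which also acts in glucose repression, at 0.90 (SE 0.687), with 1.73 for A100 and 0.08 for B100. The repressor MIG3 was at 0.84 (SE 0.325, limma adjusted p = 0.636 for it, CAT8 and HAP4, and 0.653 for HXK2).

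Most of the 11 genes listed for the degradation of gluconeogenic enzymes are parts of the GID ubiquitin ligase. It removes FBP1, ICL1, MDH2 and PCK1 when glucose returns. The list also holds CYC8, a co-repressor of transcription. The 11 had 8 negative and 3 positive fold changes at 100 µg/ml against their own controls, with CYC8 among the positive at 0.001. The median was -0.21, with -0.58 for A100 and 0.07 for B100, and 0 passed. Its 4 largest values were those of VID28 (-0.57, SE 0.406), GID7 (-0.46, SE 0.272), VID24, the substrate receptor (-0.40, SE 0.444), and GID8 (-0.37, SE 0.268). GID7 and GID8 were lower in both pairs, at -0.76 and -0.62 for A100 and -0.15 and -0.12 for B100. VID28 and VID24 were lower for A100 (-1.19 and -1.23) and higher for B100 (0.04 and 0.43). The list of 11 genes of retrograde signalling pools positive and negative regulators with targets such as IDH1 and DLD3. Against their own controls at 100 µg/ml 11 of 11 were negative, beside 45.2% of all probe sets, the smallest in size at -0.003 (SE 0.218). Their median was -0.36, with 0 past the test, and the medians were -0.66 and -0.17 in the A100 and B100 pairs and 0.11 in the 10 pair. In the A100 pair 9 of 11 were lower, and in the B100 pair also 9 of 11. Both 100 µg/ml arrays lay below both own controls for 4 of 11, beside 18.5% of all probe sets. IDH1, a subunit of mitochondrial isocitrate dehydrogenase (-0.69, SE 0.410), and DLD3, named for D-lactate dehydrogenase activity (-0.62, SE 0.276), had the largest values.

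**Figure D5:**
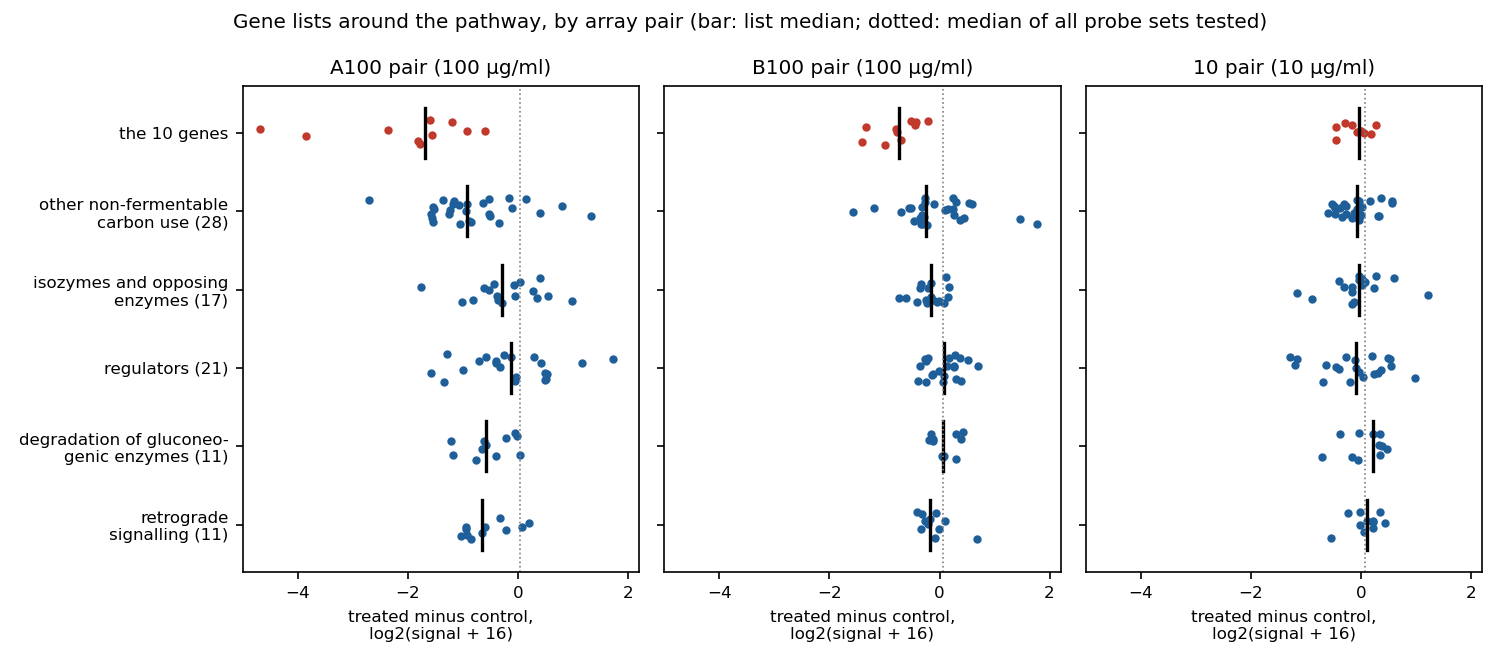
Treated minus control in log2(signal + 16) (horizontal axes, 1 panel per array pair) for every gene of the 6 lists (rows, points spread vertically for legibility), with a black bar at each list's median and a dotted line at the median of all probe sets tested. The bar of the 10 genes lies furthest left at 100 µg/ml, at -1.70 and -0.74, and at -0.04 in the 10 pair.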

How the data were processed

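The deposited values are intensity values on a linear scale, 1 signal per probe set and array. Per the submitters' processing notes, MAS5 produced them. No label, note or header gives its version, scaling target or background settings. The trimmed means were near equal (500.3 to 500.4), so the values were used as deposited. Of 9335 probe sets, 60 manufacturer's controls were removed, and of the other 9275 the 25% with the lowest mean log2 value, leaving 6956. Of these, 5670 carry 1 gene symbol in the platform annotation, the sole source of names, 282 several and 1004 none; locus names come from RefSeq by gene ID. The probe set with the highest mean stood for a gene that had several.

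limma 3.58.1 (R 4.3.3) fitted log2(signal + 16) on all 6 arrays with a variance trend, with 1 mean per group (3 residual degrees of freedom) or with the controls split by the dose number in their titles (2). The threshold was an adjusted p of 0.05. The code was tested on simulated data. The number of arrays limits the precision. The genes and lists were chosen with earlier results of these data known. Named were all 10 genes, all 17 partner genes (isozymes, opposing enzymes, PYC1 and PYC2) and the 5 genes most like the set's mean profile. Up to 4 members of each other list were also named, by absolute fold change against own controls. SIP4, ADR1, SNF1 and CYC8 were named in addition, for what they do. MAS5 detection calls were not used here. Alternatives were other scalings, pseudocounts, filters, no variance trend, the array label as a replicate block and leaving out each array. The difference A100 minus B100 had r = -0.071 between the treated and the control arrays, across probe sets. This value gave no sign of pairing within A100 and B100. It cannot show that pairing is absent, because its treated side includes the treated A100 array, on which the size of the differences rests. These pairs rest on the letters in the labels alone.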

Additional observations from a re-analysis of the deposited data

Results flagged for a closer look

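FBP1, ACS1, SFC1 and MDH2 were lower than their own controls in both 100 µg/ml pairs and higher than the control in the 10 µg/ml pair, by 0.27, 0.00, 0.06 and 0.19 (log2). For FBP1, ACS1 and SFC1, though not for MDH2, this was less than the A100 and B100 controls differed by (0.39, 0.42 and 0.41). ACS1 and SFC1 turned negative in the 10 pair after scaling to a common median. The difference between the doses, each against its own controls, was -1.33 for FBP1, -1.14 for ACS1, -2.65 for SFC1 and -0.59 for MDH2. None of these differences between doses passed the limma test (adjusted p = 0.966 for each), and the 10 µg/ml dose has 1 array.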

How the results depend on the processing

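At 100 µg/ml the direction of the 10 genes held under other scalings, pseudocounts, filters, no variance trend and the replicate block, except that MDH2 against all 3 controls turned to 0.026 after quantile normalisation. No probe set passed under any of these, the replicate block included. Leaving out each array gave medians of -1.71 to -0.33 against all 3 controls (MDH2 -0.40 to 0.12), -1.81 to -0.51 against own controls and -1.85 to -0.44 for the difference between doses. The counts of probe sets past the threshold were then 0 to 1135 at 100 µg/ml against own controls and 0 to 233 for the difference, both highest without the treated B100 array. They were 0 to 4 for 10 µg/ml against all 3 controls and 0 to 1 against its own. With an A100 or B100 array left out, the fits with split controls have 1 residual degree of freedom. For 10 µg/ml against all 3 controls, the replicate block, which sets the dose against the control of its label, moved the median from -0.40 to -0.042, FBP1 to 0.27, ACS1 to 0.00169, ADH2 to -0.45, SFC1 to 0.060 and MDH2 to 0.19. FBP1 was also 0.061 after quantile normalisation, and -0.34 to 0.063 with each array left out. Against its own control, quantile normalisation turned PCK1 to 0.12 and CIT2 to 0.10, and scaling to a common median turned ACS1 to -0.15 and SFC1 to -0.094; the cause was not tested. All signals of the 10 genes were above 100, well clear of the pseudocount of 16.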
